A study of Mus musculus with 8 samples.

Results

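The question addressed here was whether thymocytes with reduced Ikaros respond to the loss of Notch signals differently from wild-type thymocytes. For each gene the response to a gamma-secretase inhibitor was measured in both genotypes, and the response of wild-type (WT) cells was subtracted from that of Ikaros-deficient (IkL/L) cells. This difference of the responses is positive where IkL/L cells rose more or fell less than WT cells, and negative in the opposite case. The genes described are all those not on the X or Y chromosome, 17405 of the 18194 genes tested. A further 626 genes lay on X or Y and 163 had no chromosome listed, and these are not described.

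The 8 Affymetrix mouse arrays held 4 groups of 2: WT treated with DMSO, WT treated with the inhibitor (GSI), IkL/L treated with DMSO and IkL/L treated with GSI. The inhibitor was MRK-003, at 5 mM as labelled, and DMSO, its vehicle, was given to the controls for the same 16 h. All 4 groups were lineage-negative thymocytes grown on OP9 DL1, stromal cells that display the Notch ligand Delta-like, and all were then sorted as DN3 cells by the absence of lineage markers and CD44 and the presence of CD25. IkL/L is the allele that the series title calls Ikaros deficient. The age and number of the mice, and whether replicates came from separate animals or cultures, were not given in the sources used here, so p-values cover the spread between these samples only, and that spread may be technical.

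Notch receptors are cut by gamma-secretase when a neighbouring cell presents a ligand, and the freed intracellular part joins the DNA-binding protein RBPJ to activate its targets. Ikaros, encoded by Ikzf1, is a zinc finger protein that binds a related DNA sequence and recruits repressive and activating complexes. Early T cell precursors need Notch signals at the DN3 stage, and Ikaros is known to restrain Notch target genes and to suppress T cell leukaemia in mice.

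Levels are log2 array values, in which a step of 1 is a 2-fold difference. Over the 8 arrays Il2ra, the gene of the CD25 protein sorted on, lay between 9.42 and 12.03, the pre-T cell receptor gene Ptcra between 8.37 and 11.20, Thy1 between 12.53 and 12.89, and the recombinase gene Rag1 between 11.71 and 12.95. Cd44 lay between 5.57 and 7.18, Cd4 between 5.91 and 7.88 and Cd8a between 6.02 and 8.43. Array medians lay between 5.25 and 5.33, and the correlation of replicates over all probe sets was 0.975 to 0.993. In each group the array numbered 1 had more stromal marker RNA: the mean log2 level of 23 stromal genes was 7.26 against 6.46 in WT DMSO, 7.94 against 6.34 in WT GSI, 7.31 against 6.42 in IkL/L DMSO and 7.44 against 6.81 in IkL/L GSI. RNA length was followed by the GAPDH controls, whose 3' minus 5' difference was 1.71 and 2.12 with DMSO and 2.20 and 3.08 with GSI in WT cells, and 1.87 and 2.47 with DMSO and 3.09 and 3.03 with GSI in IkL/L cells. It was thus higher with GSI in each genotype, and whether either measure plays a part in the values below was not tested apart from the fits that include it as a covariate.

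The targeted gene was examined first. In WT cells Ikzf1 was at 11.95 and 12.17 with DMSO and at 12.18 and 11.95 with GSI, and in IkL/L cells at 11.14 and 11.19 with DMSO and at 11.75 and 11.52 with GSI. On this probe set, 1 of 2, all 4 IkL/L arrays lay below all 4 WT arrays. The response of Ikzf1 to GSI was 0.01 in WT cells against 0.47 in IkL/L cells, and the difference of 0.47 ± 0.20 (SE) did not pass (limma, adjusted p = 0.83). The other probe set, with a mean level of 5.98, gave -0.21 ± 0.25, and the average of both gave 0.13. Whether either probe set falls inside the sequence that IkL/L alters was not given in the sources used here.

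In 8 genes the response differed between the genotypes at an adjusted p below 0.05 (limma), 0.046% of the genes tested. The response was more positive in IkL/L for Rab44, Muc3, Ccr9, Atp8b4 and Mctp1 (0.0287% of genes) and more negative for Gm266, Exoc3l4 and 2810459M11Rik (0.0172%). At an unadjusted p below 0.05 there were 1044 genes (6.0%). Of these, 507 were more positive (2.91%) and 537 more negative (3.09%). The median difference over all genes was -0.06 with a median SE of 0.249, and it exceeded 2-fold in either direction in 299 genes (1.72%). The GSI response itself passed the adjusted threshold in 1143 genes in WT (6.57%; 2.36% higher and 4.21% lower) and in 2954 genes in IkL/L (17.0%; 7.8% higher and 9.18% lower). The genotypes differed in 1.65% of genes under DMSO and in 1.44% under GSI. Of the 1920 genes called in IkL/L alone, 6 passed the test of the difference, as did 0 of the 109 called in WT alone and 2 of the 1034 called in both. A call in 1 genotype was therefore in most cases not a called difference between them.

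The 8 calls depended strongly on single arrays. Leaving out 1 array in turn gave between 0 and 5 called genes: 0 without the first WT DMSO array or the first IkL/L DMSO array, 1 without the first IkL/L GSI array and 5, of which 4 were among the 8, without the first WT GSI array. Leaving out each of the other 4 arrays gave 2, of which 1 was among the 8 without the second WT DMSO or the second IkL/L GSI array. A group left with 1 array was assumed to vary like the others. The differences themselves kept their sign, and that of Ccr9, for example, lay between 1.89 and 2.15 with any array left out. With the stromal marker level or the GAPDH difference of each array as a covariate, 53 and 63 genes were called, and these included all 8.

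**Figure D1:**
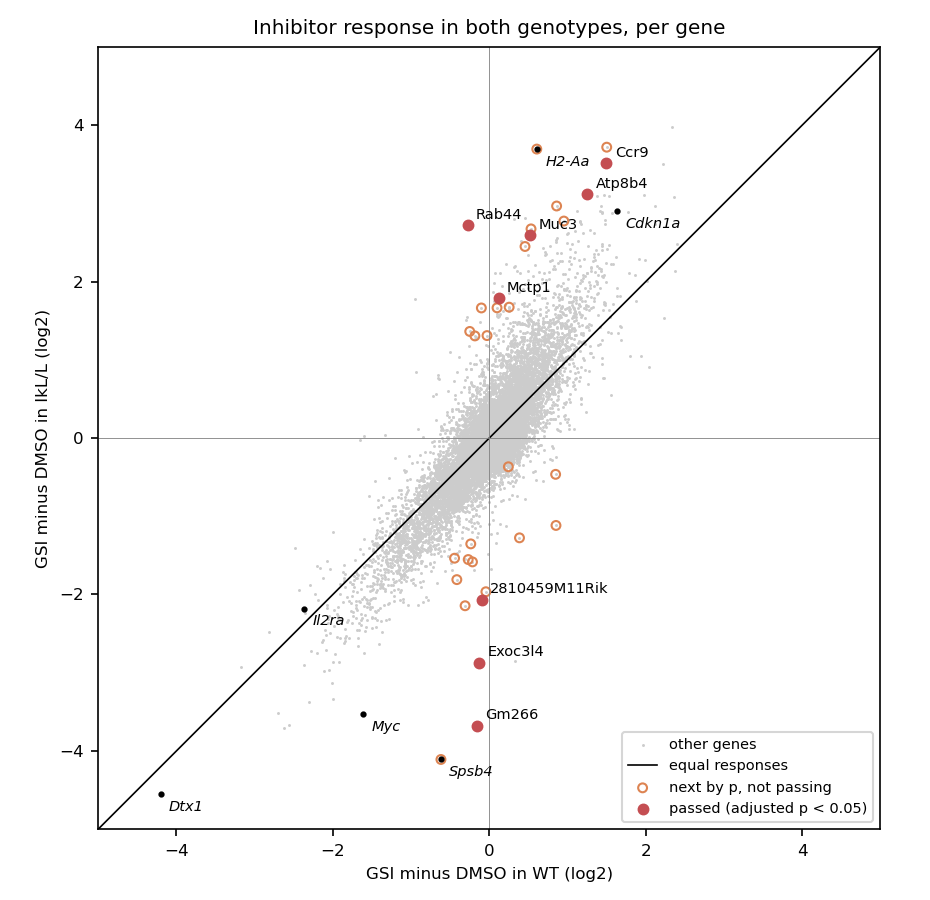
The response to GSI (GSI minus DMSO, log2) of each gene in WT (horizontal axis) and in IkL/L (vertical axis), with the line of equal responses. The 8 genes that passed (filled red) lie away from the line. Dtx1 and Il2ra lie near it at large falls in both genotypes, and the next 24 genes by p (orange rings) did not pass.

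Ccr9 and Atp8b4 were low in IkL/L cells under DMSO and near the WT level under GSI. Ccr9 encodes the receptor for the thymic and gut chemokine CCL25, and Atp8b4 encodes a flippase that moves phospholipids across membranes. Ccr9 was at 11.52 and 11.63 with DMSO and 12.94 and 13.20 with GSI in WT cells, and at 9.49 and 9.44 with DMSO and 13.03 and 12.93 with GSI in IkL/L cells. The IkL/L DMSO arrays were the lowest, and the GSI arrays of both genotypes were alike and the highest. Ccr9 rose in both genotypes, by 1.5 in WT and by 3.52 in IkL/L (2.82-fold and 11.4-fold), and the difference was 2.02 ± 0.18 (95% interval 1.61 to 2.43; limma, adjusted p = 0.028). Under DMSO it was lower in IkL/L by 2.11 ± 0.13 on the log2 scale (coded IkL/L minus WT, -2.11; adjusted p = 0.00036), and under GSI the genotypes differed by -0.09 ± 0.13 (adjusted p = 0.88). All 5 probe sets of Ccr9 had a positive difference, between 1.34 and 2.54, but their average did not pass (1.92, limma adjusted p = 0.27), nor did Ccr9 with every probe set tested as a feature (adjusted p = 0.050). Atp8b4 was at 10.65 and 10.65 with DMSO and 11.90 and 11.91 with GSI in WT cells, and at 8.61 and 8.77 with DMSO and 11.67 and 11.96 with GSI in IkL/L cells. It rose by 1.26 in WT cells and by 3.12 in IkL/L cells, with a difference of 1.87 ± 0.21 (adjusted p = 0.048), and its other probe set gave 2.75. Neither gene kept its call throughout: Ccr9 passed without 2 of the 8 arrays in turn and Atp8b4 without 0.

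Rab44, Mctp1 and Muc3 had a call for the response in IkL/L and none in WT, and IkL/L GSI was the group that stood apart. Rab44, which encodes a large Rab GTPase, was at 8.51 and 8.86 with DMSO and 8.53 and 8.29 with GSI in WT cells, and at 7.37 and 7.58 with DMSO and 10.13 and 10.27 with GSI in IkL/L cells. It thus lay below WT in IkL/L cells under DMSO (-1.21 ± 0.20, limma adjusted p = 0.027) and above WT under GSI (1.79 ± 0.20, adjusted p = 0.0047), so that the genotypes changed order. Its responses were -0.28 and 2.72 in WT and IkL/L, with a difference of 3.0 ± 0.29 (95% interval 2.34 to 3.66; adjusted p = 0.031). Mctp1, which encodes a membrane protein with calcium-binding C2 domains, was at 3.87, 3.84, 4.08 and 3.87 on the WT arrays, 4.13 and 4.16 with DMSO in IkL/L cells, and 5.95 and 5.92 with GSI in IkL/L cells. Muc3, a membrane mucin gene, was at 4.40 and 4.20 with DMSO and 4.81 and 4.83 with GSI in WT cells, and at 4.30 and 4.18 with DMSO and 6.65 and 7.01 with GSI in IkL/L cells. For both genes the IkL/L GSI arrays lay above all 6 others, with differences of 1.67 ± 0.16 (adjusted p = 0.031) and 2.07 ± 0.22 (adjusted p = 0.046). The WT levels of Mctp1 and Muc3 were low for this array, where the median gene had a mean of 6.36. Whether they exceed background was not tested. Each of these 3 genes has a single probe set; Rab44 and Mctp1 passed without 1 of the 8 arrays in turn, and Muc3 without 0.

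Gm266, Exoc3l4 and 2810459M11Rik were high in IkL/L cells under DMSO and near the WT level in IkL/L cells under GSI. Exoc3l4 encodes a relative of the exocyst protein EXOC3, and the others are named here as the array annotation gives them. Gm266 was at 3.29 and 3.29 with DMSO and 3.22 and 3.05 with GSI in WT cells, and at 7.25 and 7.11 with DMSO and 3.24 and 3.77 with GSI in IkL/L cells. It fell in IkL/L by 3.68 on the log2 scale (12.8-fold) against a WT response of -0.16, a difference of -3.52 ± 0.24 (95% interval -4.09 to -2.96), with the smallest adjusted p of the comparison (limma, 0.0085). It passed without 6 of the 8 arrays in turn, more than any other called gene. Its other probe set, however, gave -0.13 ± 0.23, so the result rests on 1 of 2, and their average did not pass (-1.83, adjusted p = 0.053). Exoc3l4 was at 4.27 and 3.98 with DMSO and 4.02 and 3.97 with GSI in WT cells, and at 7.45 and 6.81 with DMSO and 4.12 and 4.40 with GSI in IkL/L cells, with a difference of -2.74 ± 0.31 (adjusted p = 0.048). 2810459M11Rik was at 4.21 and 3.93, then 3.85 and 4.09 on the WT arrays, at 6.0 and 6.24 in IkL/L DMSO and at 4.07 and 4.04 in IkL/L GSI, with a difference of -1.97 ± 0.22 (adjusted p = 0.046). Exoc3l4 passed without 1 of the 8 arrays in turn and 2810459M11Rik without 0. For all 3 genes the IkL/L DMSO arrays lay above the 6 others. The WT levels of these genes were low for this array, where the median gene had a mean of 6.36 and 10% of genes lay below 3.44; no detection calls were used, so whether these levels exceed background was not tested.

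**Figure D2:**
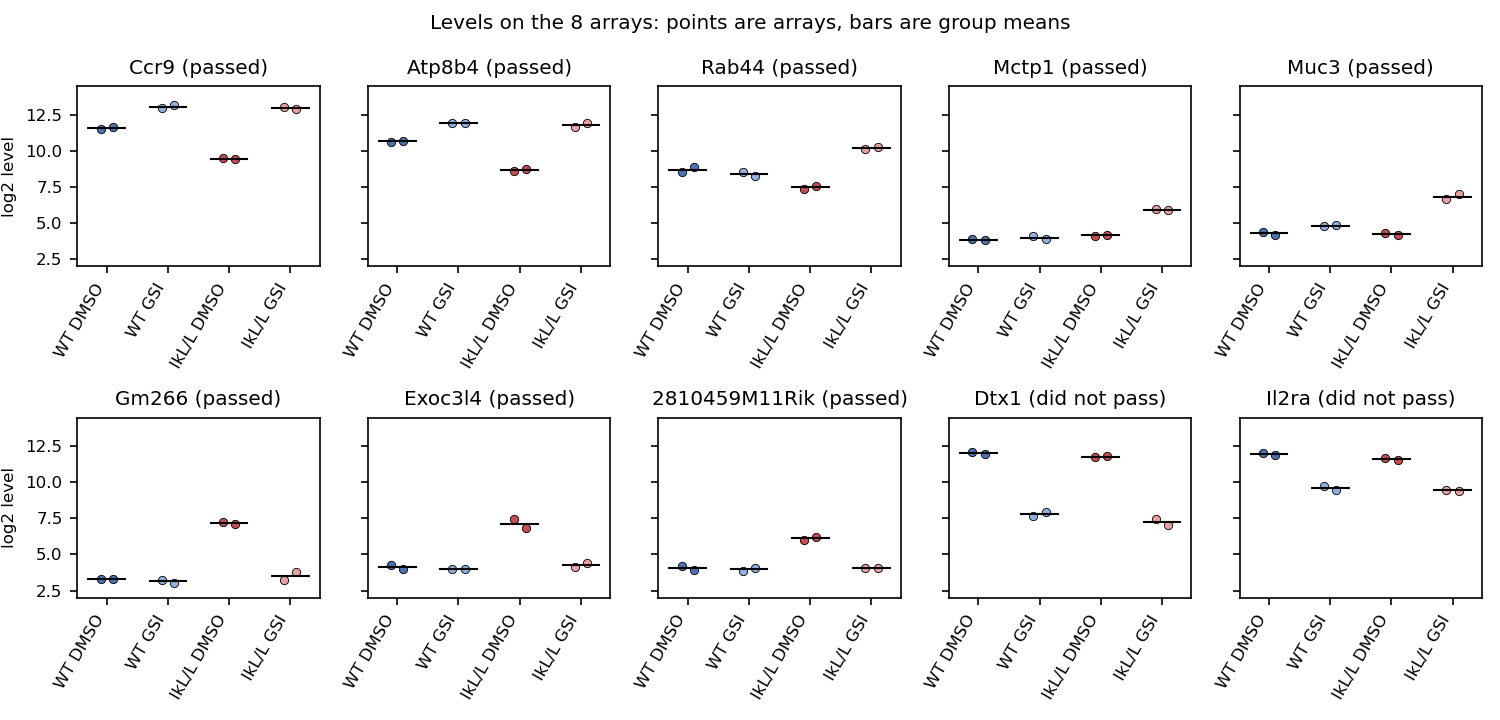
Log2 levels on the 8 arrays of the 8 genes that passed and of the Notch targets Dtx1 and Il2ra, which did not (points are arrays, bars group means). IkL/L DMSO is the low group for Ccr9 and Atp8b4 and the high group for Gm266, Exoc3l4 and 2810459M11Rik, while IkL/L GSI is the high group for Rab44, Mctp1 and Muc3.

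Gene order was examined because Gm266 and Exoc3l4 are near each other on chromosome 12, with only Tnfaip2 between them among protein-coding genes; this was looked at after their values were seen. Tnfaip2 itself had a difference of -0.19 ± 0.27. Of the 14 measured immediate neighbours of called genes, 3 had an unadjusted p below 0.05, and of 63 measured uncalled genes within 5 genes on either side, 5 did, beside 6.0% of all genes. The 3 immediate neighbours were Cdkn1a next to Rab44 on chromosome 17 (1.26 ± 0.21), the acyl-CoA synthetase gene Slc27a2 next to Atp8b4 on chromosome 2 (1.61 ± 0.23) and Lztfl1 next to Ccr9 on chromosome 9 (0.88 ± 0.23). Each had the same sign as its called neighbour and none passed the adjusted threshold (limma, adjusted p = 0.18, 0.13 and 0.57). The other two had the opposite sign to theirs: 2210408I21Rik near Mctp1 (-0.43 ± 0.15) and Pi16 near Rab44 (-0.38 ± 0.16).

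**Figure D3:**
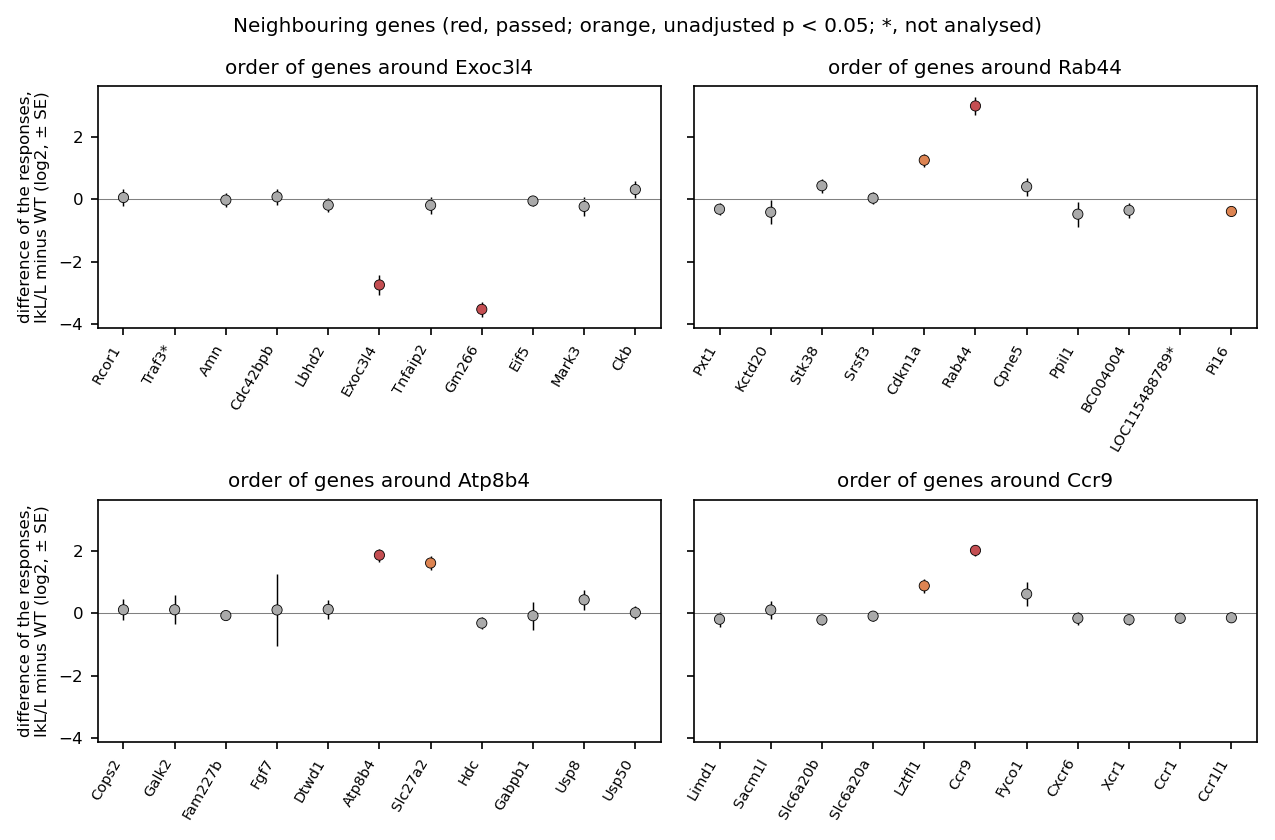
Difference of the responses (IkL/L minus WT, log2, ± SE) for protein-coding genes in chromosome order around 4 called genes. Exoc3l4 and Gm266 lie at -2.74 and -3.52 with Tnfaip2 between them at -0.19, and Cdkn1a, Slc27a2 and Lztfl1 are the orange points next to Rab44, Atp8b4 and Ccr9.

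The stretches before the start sites of called genes are shown because RBPJ and Ikaros recognise related letters: GGGAA is the core of Ikaros sites and TGGGAA that of RBPJ sites, so every TGGGAA match is also a GGGAA match. Sequences of 250 bases before the start were taken from RefSeq on GRCm38.p6 for the 6 called genes listed there, and both strands were searched. Below are Ccr9 (chr9:123766961-123767210, plus strand) and Atp8b4 (chr2:126491554-126491803, minus strand), which moved alike, then Gm266 (chr12:111485824-111486073, minus strand), which moved in the opposite direction, and Mctp1 (chr13:76579347-76579596, plus strand), high in IkL/L GSI. Capitals mark GGGAA or its complement TTCCC, and each runs 5′ to 3′ along its gene's strand.
Ccr9: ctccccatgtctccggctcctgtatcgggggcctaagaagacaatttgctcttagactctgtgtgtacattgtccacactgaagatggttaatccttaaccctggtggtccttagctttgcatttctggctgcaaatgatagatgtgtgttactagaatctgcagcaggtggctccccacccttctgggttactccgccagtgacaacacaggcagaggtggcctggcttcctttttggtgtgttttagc
Atp8b4: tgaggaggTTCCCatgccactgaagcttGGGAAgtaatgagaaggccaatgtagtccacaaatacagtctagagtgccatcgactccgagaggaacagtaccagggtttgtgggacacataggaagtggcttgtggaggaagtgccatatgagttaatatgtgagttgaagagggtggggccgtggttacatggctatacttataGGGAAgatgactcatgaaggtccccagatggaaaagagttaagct
Gm266: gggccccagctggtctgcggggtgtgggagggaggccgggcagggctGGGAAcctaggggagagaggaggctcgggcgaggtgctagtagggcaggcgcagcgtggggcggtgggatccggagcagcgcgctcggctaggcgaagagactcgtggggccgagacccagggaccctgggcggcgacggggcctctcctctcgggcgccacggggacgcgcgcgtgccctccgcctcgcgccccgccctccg
Mctp1: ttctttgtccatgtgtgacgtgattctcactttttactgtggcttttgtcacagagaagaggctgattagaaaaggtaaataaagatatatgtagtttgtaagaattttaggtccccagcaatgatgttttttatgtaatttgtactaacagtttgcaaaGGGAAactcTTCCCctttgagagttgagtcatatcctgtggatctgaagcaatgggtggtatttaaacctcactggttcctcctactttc
Ccr9 held neither motif, Atp8b4 held 3 GGGAA matches of which 2 were TGGGAA, Gm266 held 1 that was also TGGGAA, and Mctp1 held 2 with no TGGGAA. Of the 6 genes, 4 held GGGAA and 2 held TGGGAA. Among the 13833 genes of the comparison with a listed start, 57.9% held GGGAA and 21.0% held TGGGAA in a stretch of this length. Genes that moved alike, Ccr9 and Atp8b4, thus differed in these letters.

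The next 12 genes by p in each direction, taken among genes whose responses did not overlap between the genotypes, did not pass. Non-overlap alone was common: it held for 3442 genes (19.8%), 1254 more positive (7.2%) and 2188 more negative (12.6%). Closest to the threshold on the positive side were Lmo7, Pcdhb16, Hnmt, Plscr2 and Rasa4, all with an adjusted p of 0.060 (limma). Lmo7, a LIM domain gene of cell junctions, repeated the order of Ccr9 and was at 6.29 and 6.25 with DMSO and 7.20 and 7.25 with GSI in WT cells, and at 4.29 and 4.53 with DMSO and 7.20 and 7.17 with GSI in IkL/L cells, a difference of 1.82 ± 0.22. Rasa4, which encodes a Ras GTPase-activating protein, was at 10.54 and 10.51, 12.30 and 11.74, 7.66 and 7.55, and 11.26 and 11.38 in the 4 groups (WT with DMSO, WT with GSI, then IkL/L with each), a difference of 2.22 ± 0.28. In both genes IkL/L DMSO was the low group, as it was for Spib, an ETS factor gene of B and plasmacytoid dendritic cells (2.11 ± 0.32), and the interferon-inducible GTPase gene Gbp8 (2.14 ± 0.34). The second probe sets of Lmo7 and Rasa4 gave -0.28 and 0.12, so their values rest on 1 of 2.

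In the other positive genes of this group IkL/L GSI stood apart on the high side. Hnmt, which encodes the enzyme that inactivates histamine, was at 3.07, 3.0, 3.10 and 2.91 on the WT arrays, 3.45 and 3.42 with DMSO in IkL/L cells, and 4.61 and 4.88 with GSI in IkL/L cells. The phospholipid scramblase gene Plscr2 gave a difference of 1.57 ± 0.20, the protocadherin gene Pcdhb16 1.42 ± 0.17 (its other probe sets 0.27 and 0.01), the ubiquitin ligase gene Rnf180 1.76 ± 0.26, the Ras association gene Rassf4 1.99 ± 0.32 and the exchange factor gene Dock6 1.49 ± 0.24. The other probe sets of these genes gave smaller values: -0.22 for Rnf180, 0.53 and 0.20 for Rassf4, and -0.12 for Dock6. Hnmt, Plscr2, Slc27a2, Spib and Gbp8 have a single probe set each. The WT levels of Hnmt and Plscr2 lay below 3.44, as did the mean levels of 10% of genes. Whether they exceed background was not tested.

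Among the negative genes Spsb4 had the largest difference. Spsb4, encoding a SOCS box protein of ubiquitin ligases, was at 4.58 and 3.61 with DMSO and 3.60 and 3.36 with GSI in WT cells, and at 7.38 and 8.33 with DMSO and 3.71 and 3.78 with GSI in IkL/L cells. Its difference was -3.49 ± 0.51 (limma, adjusted p = 0.13), and its other probe set gave -2.34 ± 0.27. IkL/L DMSO was the group furthest apart, as for Gm266, and this recurred in Fjx1 (-1.92 ± 0.32), the metalloprotease gene Adamts20 (-1.37 ± 0.23), the aggrecan gene Acan (-1.28 ± 0.26), Fnip2 (-1.12 ± 0.22), Ptgfrn (-1.83 ± 0.37) and the nuclear receptor gene Nr2e1 (-0.61 ± 0.13). Other probe sets gave -1.5 and -0.20 for Fjx1, -0.36 for Ptgfrn and -0.06 for Nr2e1. Over the arrays Nr2e1 lay between 3.52 and 3.96 and Adamts20 between 2.92 and 4.68. Both were low for this array, where 10% of genes lay below 3.44, and whether they exceed background was not tested. Ptgfrn, which encodes a membrane protein of the immunoglobulin superfamily, was still above all WT arrays under GSI: it was at 4.64, 4.28, 4.48 and 3.82 on the WT arrays, 8.85 and 8.76 with DMSO in IkL/L cells, and 6.91 and 6.41 with GSI in IkL/L cells.

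Gpr25, an orphan receptor gene, gave opposite responses. It was at 9.05 and 8.94 with DMSO and 9.92 and 9.77 with GSI in WT cells, and at 8.18 and 7.93 with DMSO and 7.09 and 6.79 with GSI in IkL/L cells. It rose in WT by 0.85 (limma, adjusted p = 0.041) and fell in IkL/L by 1.12 (adjusted p = 0.0068), while the difference of -1.97 ± 0.28 itself did not pass (adjusted p = 0.11). Prag1 (-1.66 ± 0.29), Pdap1 (-1.09 ± 0.22) and the HMG-box factor gene Lef1 (-1.40 ± 0.26) were also lowest in IkL/L GSI. Lef1, which acts with TCF1 in early T cells, was at 11.60 and 11.50, 11.10 and 11.16 on the WT arrays, 11.70 and 12 with DMSO in IkL/L cells, and 10.27 and 9.81 with GSI in IkL/L cells, and its other probe set gave -1.94, while that of Prag1 gave -0.09. Btbd11 (-1.31 ± 0.26) was the only 1 of the 32 genes named so far by the test in which a WT group, WT DMSO, stood apart.

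The group that lay furthest from the other 3 was then recorded for each gene, a description chosen after the values were seen. Among genes with an unadjusted p below 0.05 and responses over 2-fold apart, a positive difference came with IkL/L DMSO low in 88 genes and IkL/L GSI high in 86, against 3 with WT DMSO high and 3 with WT GSI low. A negative difference came with IkL/L DMSO high in 23 genes and IkL/L GSI low in 24, against 2 with WT DMSO low and 3 with WT GSI high. Over all genes, whatever their p, the counts were closer: 2473 with IkL/L DMSO low, 2104 with IkL/L GSI high, 1103 with WT DMSO high and 1382 with WT GSI low on the positive side, and 3137 with IkL/L DMSO high, 3154 with IkL/L GSI low, 1607 with WT DMSO low and 2445 with WT GSI high on the negative side. Of the 8 called genes, IkL/L DMSO was high in 3 and low in 2, and IkL/L GSI was high in 3.

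**Figure D4:**
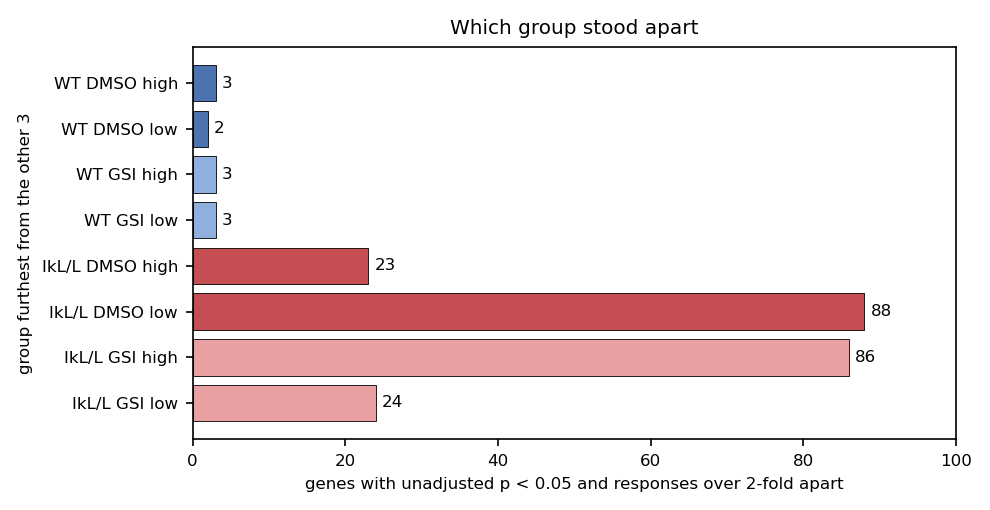
Number of genes with an unadjusted p below 0.05 and responses over 2-fold apart, by the group furthest from the other 3. The 4 IkL/L bars hold 23, 88, 86 and 24 genes and the 4 WT bars hold 2 or 3 each.

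Of 19 classical Notch targets, 6 fell with GSI in WT and 8 in IkL/L, beside 4.21% and 9.18% of all genes, and none passed the test of the difference between the genotypes. Dtx1, which encodes the ubiquitin ligase Deltex, was at 12.09 and 11.96 with DMSO and 7.68 and 7.96 with GSI in WT cells, and at 11.74 and 11.84 with DMSO and 7.44 and 7.04 with GSI in IkL/L cells. It fell by 4.20 in WT and by 4.55 in IkL/L, a difference of -0.35 ± 0.28 with a 95% interval of -0.98 to 0.29 (limma, adjusted p = 0.91). Il2ra fell by 2.37 and 2.18, a difference of 0.19 ± 0.21 (interval -0.30 to 0.68). The feedback inhibitor gene Nrarp gave -0.56 ± 0.31 (interval -1.29 to 0.16) and the repressor gene Hes1 0.57 ± 0.68 (interval -1.0 to 2.14), whose sign turned without either the second WT GSI array (-0.0207) or the second IkL/L GSI array (-0.0802). These intervals do not show that the genotypes responded alike, and that of Hes1 reaches beyond 2 on the log2 scale.

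At an unadjusted p below 0.05, 3 Notch targets of 19 were more negative in IkL/L and 1 more positive. Over all genes the shares were 3.09% and 2.91%. Ptcra fell by 1.64 in WT and by 2.33 in IkL/L, a difference of -0.68 ± 0.22. Myc was at 10.79 and 10.48 with DMSO and 9.49 and 8.57 with GSI in WT cells, and at 10.79 and 10.50 with DMSO and 8.09 and 6.14 with GSI in IkL/L cells, a difference of -1.92 ± 0.80 with an interval from -3.77 to -0.07. The arrays within each GSI group of Myc differed by more than those of the DMSO groups, and the adjusted p was 0.82. The cyclin gene Ccnd3 gave -0.97 ± 0.37, and -0.34 with its probe sets averaged. The positive member was Cdkn1a, which encodes the cell cycle inhibitor p21: it was at 9.54 and 9.62, 11.26 and 11.17, 8.64 and 8.56, and 11.42 and 11.58 in the order of groups given for Rasa4. It rose by 1.64 in WT and by 2.90 in IkL/L, and these differ by 1.26 ± 0.21 (adjusted p = 0.18). The other probe set of Cdkn1a gave 0.74 ± 0.39 (limma, unadjusted p = 0.099). The median difference over the 19 was -0.22, beside -0.06 over all genes, and it was -0.0072 when the probe sets of a gene were averaged. Parts of the Notch pathway itself had a median of -0.01, with 0 of 23 at an unadjusted p below 0.05. The receptor genes Notch1 (0.12 ± 0.18) and Notch3 (0.32 ± 0.42) changed sign when 1 WT array was left out, and Rbpj gave 0.30.

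Of the 27 gene lists examined, ribosome biogenesis genes and other genes activated by MYC had the lowest median difference, -0.49, as in 15 of the 19 alternatives. Of 30 genes 19 fell with GSI in WT and 26 in IkL/L, beside 4.21% and 9.18% of all genes, with median responses of -1.33 and -1.76. Of these genes 24 had a difference below 0, as had 10343 of the 17405 genes. None passed the adjusted test (limma). At an unadjusted p below 0.05, 0 were more positive, beside 2.91% of all genes, and 4 more negative, beside 3.09%. The 4 were the pyrimidine synthesis gene Cad (-1.12 ± 0.38), the spermidine synthase gene Srm (-1.11 ± 0.45), Mybbp1a (-0.63 ± 0.25) and Rrp12 (-1.48 ± 0.61). With probe sets averaged, Cad gave -0.56 and Mybbp1a -0.48. Srm was at 11.29 and 10.61 with DMSO and 8.68 and 8.10 with GSI in WT cells, and at 11.47 and 11.24 with DMSO and 8.02 and 7.36 with GSI in IkL/L cells, so its GSI groups did not overlap. The median of the list stayed below 0 when any array was left out, between -0.79 and -0.15. Genes of G1/S and replication had a median of -0.27, with 22 of 27 below 0 and 1, the E2F gene E2f2 (-0.85 ± 0.26), at an unadjusted p below 0.05. That median ran from -0.43 to 0.0046 when an array was left out. G2/M genes (median -0.0009, 0 of 28) and ribosomal protein genes (0.04, 0 of 11) held no gene at that level.

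MHC class II genes had the highest median, 0.36 over 12 measured genes. It stayed between 0.18 and 0.56 under the alternatives and was the highest in 10 of 19 of them. These genes encode the molecules that present peptides to CD4 T cells. With GSI 7 of the 12 rose in IkL/L and 2 in WT, beside 7.8% and 2.36% of all genes. The 4 genes with an unadjusted p below 0.05 for the difference were all positive, beside 2.91% of all genes, and none passed the adjusted test. Of the 12 genes, 8 had a difference above 0 and 4 below, the lowest at -0.43, beside 7062 and 10343 of the 17405 genes. H2-Aa was at 5.78 and 4.81 with DMSO and 6.0 and 5.81 with GSI in WT cells, and at 6.5 and 6.33 with DMSO and 10.19 and 10.04 with GSI in IkL/L cells. The IkL/L GSI arrays lay far above the 6 others, and the difference was 3.09 ± 0.42 (95% interval 2.12 to 4.05; limma, adjusted p = 0.096), with positive values for all 4 probe sets, 0.93 to 3.09. H2-Aa passed under 5 of 20 alternatives, among them the average of its probe sets (2.09, adjusted p = 0.045), and its adjusted p ran from 0.0075 to 0.43 over them. With every probe set as a feature, the H2-Aa probe set used here did not pass (limma, adjusted p = 0.21). The H2-Aa probe set with the lowest mean level, 3.07, did pass (1.59, adjusted p = 0.029). H2-Eb1 gave 2.02 ± 0.33, the invariant chain gene Cd74 1.91 ± 0.33 and H2-Ab1 1.10 ± 0.34. The class II transactivator gene Ciita was between 3.92 and 4.35 on all arrays (-0.06 ± 0.16), and the peptide-loading gene H2-DMa rose in both genotypes by 1.33 and 1.67, a difference of 0.34 ± 0.42.

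Markers of other blood cells were compared because some of these cells express MHC class II genes. None of the 26 myeloid and dendritic and 14 B lineage markers passed the adjusted test of the difference (limma), and the list medians were 0.04 and -0.06. Among genes above the median level, which left 5 and 4 of these markers, the medians were 0.83 and 0.61. The mean log2 level of 26 myeloid and dendritic markers was 4.86 to 5.09 in WT DMSO, 5.15 to 5.43 in WT GSI, 4.97 to 4.99 in IkL/L DMSO and 5.46 to 5.52 in IkL/L GSI, and that of 14 B lineage markers was 5.38 to 5.52, 5.51 to 5.75, 5.25 to 5.29 and 5.53 to 5.55. Of the 26 myeloid markers 3 were positive at an unadjusted p below 0.05, beside 2.91% of all genes. These 3 were the lysozyme genes Lyz1 (1.72 ± 0.38) and Lyz2 (1.65 ± 0.37) and the calprotectin gene S100a9 (0.87 ± 0.22). Lyz1 was at 7.59 and 6.98, 8.82 and 8.49, 7.22 and 7.46, and 10.22 and 10.64 in the 4 groups, in that order. The dendritic and macrophage genes Itgax (5.11 to 6.17 over the arrays), Csf1r (5.45 to 5.86) and Flt3 (4.95 to 5.31) gave -0.42, -0.29 and -0.23. These lay below 6.36, the mean level of the median gene. With GSI 4 of the 26 myeloid and dendritic markers rose in IkL/L and 2 in WT, beside 7.8% and 2.36% of all genes. Under GSI 4 of the 26 were called higher in IkL/L than in WT, beside 162 of the 17405 genes, and 0 lower. The B cell genes Pax5 and Ms4a1 gave -0.32 and 0.10. The B lineage genes Vpreb1 and Blnk gave 0.73 and 0.575. Above 0 were 15 of the 26 myeloid and dendritic and 6 of the 14 B lineage markers, beside 7062 of the 17405 genes. Of the B lineage markers 1 was positive at an unadjusted p below 0.05, the surrogate light chain gene Igll1 (0.62 ± 0.24). With probe sets averaged, Igll1 gave 0.31. In RNA from sorted populations, a change in the number of cells of a type and a change in the RNA of each cell cannot be told apart, and the part of such cells in the MHC class II values was not tested.

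**Figure D5:**
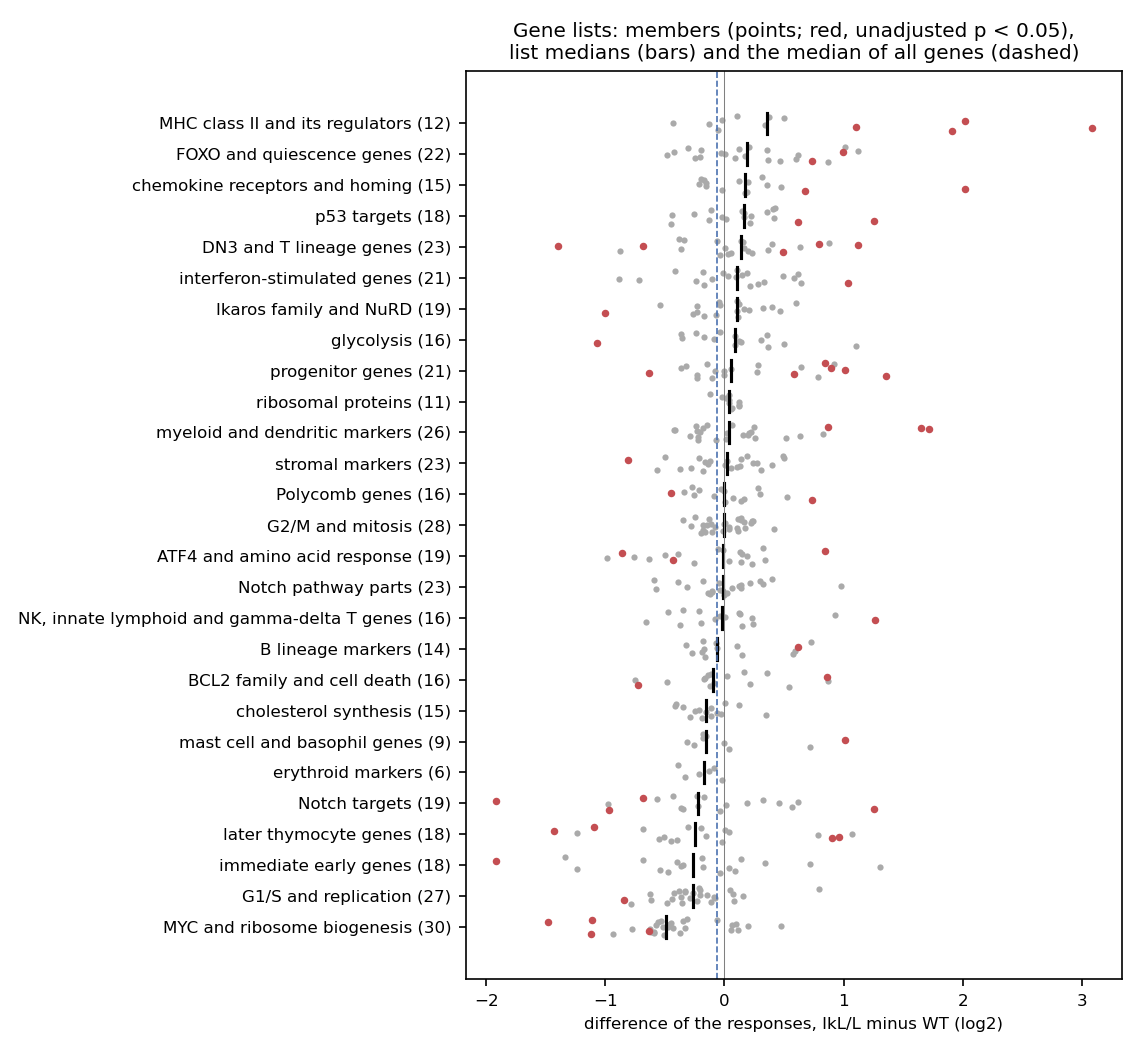
Difference of the responses (IkL/L minus WT, log2) for the measured members of 27 lists, with list medians as bars and the median of all genes, -0.06, dashed. MHC class II genes are at the top with a median of 0.36 and 4 members to the right (red, unadjusted p below 0.05), and MYC and ribosome biogenesis genes at the bottom with a median of -0.49. A list gene on 2 lists is drawn in both.

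T lineage and progenitor genes went in both directions. Of 23 DN3 and T lineage genes, 3 were positive and 2 negative at an unadjusted p below 0.05, beside 2.91% and 3.09% of all genes. The recombinase genes Rag1 (1.12 ± 0.28) and Rag2 (0.79 ± 0.27) were among the positive ones. Rag1 was at 12.48 and 12.92 with DMSO and 12.34 and 12.60 with GSI in WT cells, and at 11.71 and 11.99 with DMSO and 12.95 and 12.52 with GSI in IkL/L cells, so that IkL/L DMSO was lowest. Cd3g, a chain of the T cell receptor complex, gave 0.49 ± 0.20, and the negative genes were Lef1 and Ptcra. Of 18 genes of later thymocytes, Id3 (-1.43 ± 0.32) and Tox2 (-1.10 ± 0.28) were negative and Cd53 (0.96 ± 0.31) and Cd4 (0.90 ± 0.35) positive. Cd8a had 1 array apart, 8.43 on the first IkL/L GSI array against 6.31 on the second. Of 21 progenitor genes 5 were positive at that level, beside 2.91% of all genes, and 1 negative. They were the ETS factor gene Erg (1.35 ± 0.40), the stem cell factor receptor gene Kit (1.01 ± 0.39), Lyl1 (0.90 ± 0.36), Tal1 (0.85 ± 0.29) and Gfi1b (0.58 ± 0.23), while Hhex gave -0.63 ± 0.24. With probe sets averaged, Erg gave 0.67 and Kit 0.48. Erg was at 7.74 and 7.45, 8.67 and 8.04, 5.82 and 5.39, and 7.49 and 7.96, with IkL/L DMSO lowest, whereas Tal1 was at 4.38 and 4.18, 4.48 and 4.42, 5.29 and 5.17, and 5.94 and 6.56, highest in IkL/L GSI.

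FOXO and quiescence genes, which resting cells express, had a median of 0.19 over 22 measured genes. Of these 15 were above 0, as were 7062 of the 17405 genes. The median ran from 0.14 to 0.40 when an array was left out. Over all alternatives it ran from 0.08, with probe sets averaged, to 0.51. Of the 22 genes 2 reached an unadjusted p below 0.05: Pik3ip1 (1.0 ± 0.24), an inhibitor of PI3 kinase, and the antiproliferative gene Btg1 (0.74 ± 0.25). Over all genes 2.91% were positive at that level and 3.09% negative. Pik3ip1 was at 10.88 and 10.75 with DMSO and 11.84 and 11.48 with GSI in WT cells, and at 10.02 and 9.78 with DMSO and 11.68 and 11.80 with GSI in IkL/L cells. As for Ccr9, IkL/L DMSO was lowest and the GSI groups overlapped. Of 18 p53 targets Cdkn1a and the cyclin G gene Ccng1 (0.62 ± 0.23) were positive at that level, and of 16 BCL2 family and death genes the BH3-only gene Bmf was positive (0.86 ± 0.26) and Bak1 negative (-0.72 ± 0.28). With probe sets averaged, Cdkn1a gave 1.0, Ccng1 0.50, Bmf 0.35 and Bak1 -0.60. Of 15 chemokine receptor and homing genes, Ccr9 passed and Ccr6 (0.68 ± 0.28) reached the unadjusted level. The thymic homing receptor genes Ccr7 and Cxcr4 gave -0.02 and 0.36.

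In the Ikaros family and its NuRD partners, 1 of 19 genes reached the unadjusted level, beside 6.0% of all genes. It was the NuRD subunit gene Gatad2b (-1.0 ± 0.28), which gave -0.21 with its probe sets averaged. The Ikaros relatives Ikzf2, Ikzf3, Ikzf4 and Ikzf5 gave 0.21, 0.16, 0.32 and 0.40. Of 16 Polycomb genes Cbx7 was positive (0.73 ± 0.27) and Pcgf2 negative (-0.45 ± 0.17). They gave 0.32 and -0.28 with probe sets averaged. Among 16 genes of innate lymphoid and related cells the receptor gene Il17re was positive (1.26 ± 0.26): it was at 6.92 and 6.73, 7.68 and 7.5, 6.37 and 6.58, and 8.59 and 8.41, with IkL/L GSI highest. With probe sets averaged, Il17re gave 0.61. In metabolism the cystine transporter gene Slc7a11 was positive (0.85 ± 0.23), and the hexokinase gene Hk2 (-1.07 ± 0.42), the serine enzyme gene Shmt2 (-0.86 ± 0.37) and Cth (-0.43 ± 0.16) were negative. Of 21 interferon-stimulated genes 1, Gbp3 (1.04 ± 0.45), reached that level, and the median of the list, 0.11, ran from -0.73 to 0.88 when an array was left out. Immediate early genes had a median of -0.27, which ran from -1.41 to 0.57 when an array was left out, with Myc alone at that level. Of 6 erythroid and 15 cholesterol synthesis genes 0 reached it, of 9 mast cell and basophil genes Kit did, and of 23 stromal markers Pdgfrb did (-0.81 ± 0.28).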

How the data were processed

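The deposited values are log2 levels per probe set that the authors made with RMA (background correction and normalization between arrays), per the submitters' processing notes; its version was not given in the sources used here. Groups were taken from the sample titles. The arrays hold 45101 probe sets, from which 64 controls, 9160 without a listed gene and 932 with more than 1 gene were removed. The probe set with the highest mean stood for each of the 9009 genes with several, which gave 18194 genes, 18031 of them matched to RefSeq for chromosome and order.

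limma 3.58.1 in R 4.3.3 (lmFit, eBayes with a trend) was fitted to all 8 arrays with 4 groups, 4 residual and 4.11 prior degrees of freedom. Two-sided p-values were adjusted by the Benjamini-Hochberg method over all genes. Responses did not overlap where the lowest GSI minus the highest DMSO array of a genotype exceeded the highest minus the lowest of the other. The genes and 27 lists (531 genes, 474 measured; the rest not analysed here) were chosen with earlier results of these data known. Named were all called genes, the next 12 each way by p among non-overlapping genes without provisional symbols, the 3 smallest p in each list, and 12 genes always. Other members of a list at an unadjusted p below 0.05, Ciita, H2-DMa, the lineage markers and gene neighbours were added after their values were seen. The fit was tested on simulated data. The number of arrays limits the precision.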

Additional observations from a re-analysis of the deposited data

Results flagged for a closer look

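In 8 genes the GSI responses of the genotypes differed by the test of the difference itself (limma, adjusted p below 0.05). The difference, IkL/L minus WT on the log2 scale, was positive for Rab44 (3.0), Muc3 (2.07), Ccr9 (2.02), Atp8b4 (1.87) and Mctp1 (1.67). It was negative for Gm266 (-3.52), Exoc3l4 (-2.74) and 2810459M11Rik (-1.97). Groups of 2 arrays are too small for the test for single outlying arrays.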

How the results depend on the processing

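All 8 called genes kept the sign of their difference under every alternative run, while their number changed. It was 8 with p-values adjusted over genes off X and Y only or with a 2-fold minimum, 9 after quantile normalization once more, 7 with arrays centred on their medians and 6 with probe sets averaged. It was 2 with every probe set as a feature, namely Gm266 and the H2-Aa probe set with the lowest mean level. It was 2 among genes above the median level, 2 without a trend in eBayes and 13 with robust eBayes. Leaving out 1 array in turn gave 0 to 5, and leaving out both WT arrays numbered 1 gave 0, with 1492 genes at an unadjusted p below 0.05. The stromal marker level as a covariate gave 53 and the GAPDH 3' minus 5' difference 63, both with all 8 among them. The cause of these changes was not tested. With the replicate number as a block, the replicate block fit, 24 genes were called (16 positive), all 8 among them. The numbers are not stated to pair samples and were not taken as a pairing. Over all genes, the deviations of same-numbered arrays from their group means correlated at 0.56 to 0.71 in the 3 pairs among WT DMSO, WT GSI and IkL/L DMSO. In the 3 pairs with IkL/L GSI they correlated at -0.11 to 0.02. The stromal and interferon-stimulated lists were nevertheless higher on the array numbered 1 in all 4 groups, IkL/L GSI included. Without a block, such a shift counts as spread between replicates.

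Of 2243 values of 114 named genes under the alternatives, 2085 kept direction and side of the threshold, 81 lost a call, 68 gained 1 and 9 changed sign. Most named genes had no call at the start, so keeping the side of the threshold mostly meant staying uncalled. Only the 8 called genes could lose a call, so all 81 losses were theirs. Apart from fits without 1 array, calls were kept in between 6 of 11 (2810459M11Rik) and 10 of 12 (Rab44) alternatives. The sign changed for Nusap1 (-0.0083) and Pfkp (0.0324) with probe sets averaged. With 1 array left out in turn, Notch1 ran from -0.0244 to 0.2612 (below 0 without the second WT DMSO array, and at -0.0206 without the first WT GSI array), Notch3 from -0.0639 to 0.7082 and Ifit2 from -1.5007 to 0.0663 (both turned without the first WT GSI array), Rpl4 from -0.0334 to 0.2725 (turned without the second WT GSI array) and Hes1 from -0.0802 to 1.2161 (turned without the second GSI array of either genotype, at -0.0207 for WT). Of 513 list medians 446 moved by less than the spread between replicates and 67 by more. Quantile normalization or centring turned the sign of the medians of the NK and innate lymphoid (0.0232), Polycomb (-0.0084) and stromal (-0.0085) lists. Among genes above the median level the largest moves were in mast cell and basophil genes (-0.16 to 0.87, with 2 of 9 left), myeloid and dendritic markers (0.04 to 0.83, 5 of 26), progenitor genes (0.05 to 0.71, 8 of 21) and B lineage markers (-0.06 to 0.61, 4 of 14), all 4 then above the MHC class II median of 0.36. With 2 arrays a group, size alone did not decide a call: Mctp1 passed at 1.67 and Spsb4 did not at -3.49.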
